A study of Mus musculus with 24 samples.

Results

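Matrix metalloproteinases (MMPs) and tissue inhibitors of metalloproteinases (TIMPs) were followed in lung RNA as 10 genes chosen by name, 7 proteinases (Mmp2, Mmp3, Mmp8, Mmp9, Mmp12, Mmp14 and Mmp19) and 3 inhibitors (Timp1, Timp2 and Timp3). All 10 were among the 23891 genes of the expression table, and all 10 passed the filter of a mean of at least 1 CPM (counts scaled so that each sample has the same total over genes). The left lung lobe of 24 C57BL/6 mice was sequenced. They fell into 4 groups. The naïve adult group held 5 mice of 20 wk given saline, and the naïve aged group held 5 mice of 80 wk given saline, called saline below. The HDM group held 7 mice of 80 wk exposed to house-dust mite at 50 µg per dose in 40 µL, and the HDM + Dex group held 7 mice of 80 wk that received the same exposure and the corticosteroid dexamethasone (Dex) at 4 mg/kg every 72 h. Challenged mice gave lungs 24 h past their final challenge. No adult mouse of this table received HDM or Dex, so HDM and Dex were compared in aged mice only.

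MMPs are zinc-dependent endopeptidases that cut collagens, elastin and other matrix proteins, and they also process cytokines and cell surface proteins. Most are secreted as inactive proenzymes, so mRNA gives no measure of activity. TIMPs bind the active site of MMPs and block it, and each TIMP also inhibits other metalloproteinases to a different extent. In the lung, macrophages are the main source of Mmp12, neutrophils store Mmp8 and Mmp9 in granules, and fibroblasts are the main source of Mmp2 and Mmp14.

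Depth was estimated at 10.053 to 33.108 M reads per sample, so 3 reads, taken as the smallest detectable amount, came to 0.0906 to 0.2984 CPM. The share of 7SL RNA, an abundant non-coding RNA of the signal recognition particle, ran from 9.92% to 41.98%, and it was over 25% in 1 naïve adult, 0 saline, 5 HDM and 4 HDM + Dex samples. The 7SL share lowers the CPM of every other gene, and over all genes the median log2 fold change came to −0.23 for HDM vs. saline, 0.03 for HDM + Dex vs. HDM, −0.19 for HDM + Dex vs. saline and 0.19 for aged vs. adult. By Xist and Ddx3y, the 5 naïve adult mice were female, and females made up 2 of 5 saline, 2 of 7 HDM and 4 of 7 HDM + Dex mice. The 5 HDM samples with the high 7SL share were also the 5 from males. Lung epithelial genes were abundant in every sample, with a sum of 10 markers from 2912 to 16217 CPM. Genes of heart muscle were detected as well, at a sum of 578 to 1082 CPM in saline and 22.9 to 442 CPM in HDM samples. Because whole lung was sequenced, fewer cells of a type and less RNA per cell cannot be told apart.

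Before HDM, Timp3 and Timp2 were the most abundant of the 10 transcripts, and the remaining inhibitor, Timp1, was among the least abundant. On the scale of CPM per kb of exon, saline lungs had a median of 102.9 for Timp3, 63.1 for Timp2, 11.8 for Mmp2, 8.47 for Mmp3 and 6.14 for Mmp14. The ranges of Timp3 and Timp2 overlapped, both lay above that of Mmp2, and the ranges of Mmp2 and Mmp3 overlapped, whereas that of Mmp3 lay above that of Mmp14. Mmp9, Mmp19, Mmp8, Timp1 and Mmp12 followed at medians of 4.58, 4.07, 3.58, 0.963 and 0.461, and each of these ranges overlapped the next. Thus Mmp12 and Timp1 had the lowest medians of the 10 transcripts in saline aged lungs.

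HDM raised 5 of the 10 genes and lowered 2. Mmp12, Timp1, Mmp19, Mmp14 and Mmp2 were higher in HDM than in saline lungs, and Mmp8 and Timp3 were lower, at an adjusted p under 0.05 in limma over all genes tested. These 7 of 10 (70.0%) stood beside 25.3% of all 17744 genes tested, of which 4.04% were higher and 21.2% were lower. After median-of-ratios rescaling of the CPM, which set the median change of all genes to −0.01, the same count of members was called, 5 higher and 2 lower. That rescaling moved the split of all called genes from 717 higher and 3765 lower to 1930 higher and 2057 lower.

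Mmp12, macrophage elastase, had the largest increase of the 10. Its 5 saline samples read 2.65, 2.80, 3.34, 9.80 and 4.30 CPM. In the 7 HDM samples the lowest value was 53.1, the median 303 and the highest 660 CPM. Every HDM sample lay above every saline sample. The mean rose from 4.58 ± 2.99 (SD, n = 5) to 282 ± 234 CPM (SD, n = 7), which was 61.7-fold, and on the log2(CPM + 1) scale the rise was 5.18 with an SE of 0.64 (adjusted p = 8.88e-05). Levels within the HDM group differed 12.4-fold between mice. The 4 highest samples, replicates 1, 3, 4 and 5, were at or above 303 CPM, and the other 3 were at 55.2, 69.5 and 53.1 CPM. Mmp12 passed the test under all 22 alternatives, with an adjusted p of at most 0.00631.

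**Figure D1:**
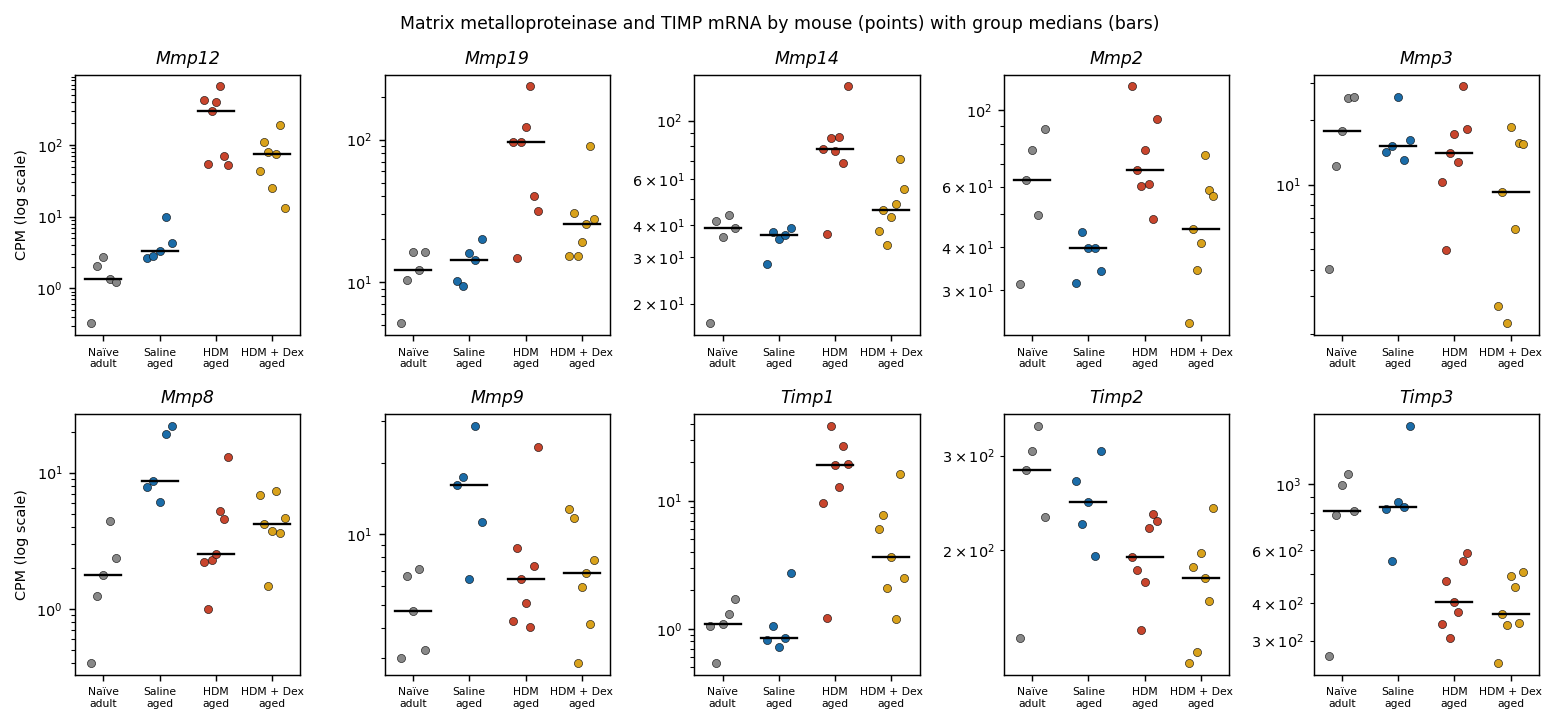
CPM of each of the 10 genes (log axes, 1 panel per gene) in each mouse of the 4 groups, with bars at the group medians. Mmp12 in the 7 HDM samples sits between 53.1 and 660 CPM, above all saline samples, and Timp3 in the 7 HDM + Dex samples sits below all saline samples.

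Mmp12 lies in a cluster of proteinase genes on chromosome 9, and 4 genes of that cluster did not move together. In the GRCm38 coordinates of the table, all on the plus strand, Mmp13 spans chr9:7272514-7283332, Mmp12 chr9:7344381-7369500, Mmp3 chr9:7445822-7455976 and Mmp8 chr9:7558456-7568486. With HDM, Mmp13, a collagenase that was not among the 10, rose by 2.59 on the log2 scale (SE 0.57, adjusted p = 0.00305), and Mmp12 rose as above. Mmp3 changed by −0.25 (SE 0.41, adjusted p = 0.678) and Mmp8 fell by 1.46 (SE 0.39, adjusted p = 0.0104). The 250 bases before the RefSeq start sites (GRCm38.p6, plus strand, 5′ to 3′) are given for 3 genes of this cluster because their changes with HDM differed. Capitals mark the letters TGANTCA, to which the AP-1 transcription factor binds and which reads the same on both strands when its middle base is set aside.
Mmp12, first start site, chr9:7344147-7344396: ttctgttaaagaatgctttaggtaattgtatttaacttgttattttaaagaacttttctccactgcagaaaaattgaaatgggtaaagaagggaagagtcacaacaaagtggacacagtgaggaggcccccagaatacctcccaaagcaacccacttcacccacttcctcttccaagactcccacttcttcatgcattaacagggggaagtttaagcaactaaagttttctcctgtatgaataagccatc
Mmp12, second start site, chr9:7347124-7347373: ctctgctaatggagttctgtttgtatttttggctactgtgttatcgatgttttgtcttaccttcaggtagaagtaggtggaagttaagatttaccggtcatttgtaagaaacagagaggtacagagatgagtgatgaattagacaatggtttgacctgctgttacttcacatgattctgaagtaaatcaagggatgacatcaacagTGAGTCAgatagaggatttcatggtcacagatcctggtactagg
Mmp3, chr9:7445572-7445821: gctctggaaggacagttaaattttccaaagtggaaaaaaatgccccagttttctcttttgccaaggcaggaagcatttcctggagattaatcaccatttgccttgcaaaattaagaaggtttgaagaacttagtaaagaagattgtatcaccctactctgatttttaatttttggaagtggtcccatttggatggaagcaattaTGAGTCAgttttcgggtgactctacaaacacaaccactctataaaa
Mmp8, chr9:7558179-7558428: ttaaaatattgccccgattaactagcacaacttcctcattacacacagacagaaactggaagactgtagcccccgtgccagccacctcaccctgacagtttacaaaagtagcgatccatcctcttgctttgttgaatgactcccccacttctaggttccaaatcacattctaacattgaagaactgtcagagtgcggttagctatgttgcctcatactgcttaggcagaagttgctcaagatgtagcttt
The form TGAGTCA stood at bases −44 to −38 from the second start of Mmp12 and at −46 to −40 from the start of Mmp3. The gene that rose most and the gene whose change did not pass the test therefore had these letters at nearly the same distance, and the windows of the first Mmp12 start and of Mmp8 did not hold them. RefSeq windows matched 7 of the 10 genes with 8 start sites, for Mmp3, Mmp8, Mmp12, Mmp14, Timp1, Timp2 and Timp3. TGANTCA was in 7.81% of all 32851 promoter windows. The shares of all windows given here include bases after the start site, so they cover longer stretches than the 250 bases printed. The letters AGGAAG, to which ETS factors bind, were found before the start of Mmp3, Mmp8, Mmp14, Timp1 and Timp3 and before the first start of Mmp12, searched on both strands, and in 35.4% of all windows. The palindromic glucocorticoid response element and the STAT6 palindrome, matched by their consensus letters, were in none of the 8 windows, and in 0.009% and 6.95% of all windows.

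Timp1, the inhibitor whose expression is inducible, rose as well. Saline samples read 0.812, 1.05, 0.725, 0.855 and 2.72 CPM, which was 15 to 55 estimated reads. The HDM samples ran from 1.21 CPM over a median of 19.02 to 38.5 CPM. Replicate 2 of the HDM group, at 1.21 CPM, lay within the saline range, and the other 6 HDM samples lay above it. The log2 fold change was 2.78 (SE 0.54, adjusted p = 0.00135). Without HDM replicate 2 it was 3.24. Timp1 passed under all 22 alternatives.

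Mmp19, a proteinase of basement membrane proteins, was at 10.2, 9.33, 16.1, 14.4 and 19.9 CPM in saline samples. In HDM samples it ran from 14.8 over a median of 96.0 to 236 CPM. Replicate 2 again lay within the saline range, and the other 6 did not. The log2 fold change was 2.20 (SE 0.50, adjusted p = 0.00357), and the adjusted p was 0.0852 with the 7SL share as a covariate.

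Mmp14, the membrane-bound proteinase that activates pro-Mmp2 on the cell surface, and Mmp2, a gelatinase, rose by less. Mmp14 was at 28.4, 37.6, 35.1, 36.6 and 38.9 CPM in saline, and at a lowest of 37.0, a median of 78.1 and a highest of 135 CPM in HDM. Its log2 fold change was 1.10 (SE 0.22, adjusted p = 0.00154), and once more only HDM replicate 2 overlapped the saline samples. Mmp2 was at 31.4, 44.4, 39.7, 39.8 and 34.0 CPM in saline, and at a lowest of 48.3, a median of 66.9 and a highest of 117 CPM in HDM. Here no HDM sample overlapped the saline samples, and the log2 fold change was 0.92 (SE 0.23, adjusted p = 0.00627). Mmp12 and Mmp2 were thus the 2 of 10 genes (20.0%) without overlap, beside 8.71% of all genes tested and 1.03% in the higher direction.

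Mmp8, neutrophil collagenase, fell. It was at 7.91, 8.68, 6.09, 19.4 and 22.1 CPM in saline, and at a lowest of 1.00, a median of 2.52 and a highest of 12.9 CPM in HDM. The highest HDM value, of replicate 7, was the only one inside the saline range. The log2 fold change was −1.46 (SE 0.39, adjusted p = 0.0104). The sum of 10 neutrophil markers had a median of 226 CPM in saline (range 114 to 281) and 91.0 CPM in HDM (57.4 to 294), where replicate 7 was again the highest. Of 7 of these markers tested, 2 were lower with HDM, S100a8 by a log2 fold change of −1.46 and S100a9 by −1.52, and none was higher, where 21.2% of all genes were lower. The other 5 did not pass, at −0.87 for Cxcr2, −0.71 for Ngp, −0.67 for Csf3r, −0.54 for Retnlg and −0.01 for Ltf (adjusted p from 0.0784 to 0.990). The part of neutrophil genes in the Mmp8 result was not tested.

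Mmp9, gelatinase B, was also lower in most HDM samples but did not pass the test. It was at 16.2, 17.4, 6.48, 28.8 and 11.3 CPM in saline, and at a lowest of 4.05, a median of 6.47 and a highest of 23.3 CPM in HDM. The log2 fold change was −0.92 (95% interval −1.69 to −0.14, adjusted p = 0.0749). The highest HDM value was again that of replicate 7, and without it the log2 fold change was −1.18 (adjusted p = 0.0114). Without saline replicate 3, the lowest of its group, the log2 fold change was also −1.18 (adjusted p = 0.0387).

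Timp3, the inhibitor that is bound to the matrix, fell from the highest level of the 10. Saline samples were at 825, 551, 869, 838 and 1561 CPM, and HDM samples at a lowest of 306, a median of 404 and a highest of 589 CPM. Only the highest HDM sample reached the lowest saline sample, and the log2 fold change was −1.05 (SE 0.22, adjusted p = 0.00216). After rescaling it was −0.79 (adjusted p = 0.00211). Endothelial markers fell in 5 of 6 cases (Tek by −0.86, Cdh5 by −0.74 and Kdr by −0.63), beside 21.2% of all genes. Vwf did not pass, at 0.20 (adjusted p = 0.334). Their summed medians were 2210 CPM in saline and 1581 CPM in HDM, but after rescaling 2 of 6 were lower and 1 was higher. Other lists fell too, with 5 of 10 lung epithelial, 4 of 9 fibroblast, 7 of 7 heart muscle and 1 of 5 smooth muscle markers lower, and 1 fibroblast marker higher. After rescaling 4, 2, 7 and 1 of these were lower. The part of any of these cell types in the Timp3 result was not tested.

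Timp2 and Mmp3 did not pass the test. Timp2, which with Mmp14 takes part in the activation of pro-Mmp2, had means of 248 ± 42.2 (SD, n = 5) and 196 ± 32.9 CPM (SD, n = 7) and a log2 fold change of −0.34 (95% interval −0.68 to 2.92e-05, adjusted p = 0.128). Mmp3, stromelysin 1, had means of 16.9 ± 5.13 and 15.2 ± 7.49 CPM and a log2 fold change of −0.25 (95% interval −1.10 to 0.61, adjusted p = 0.678). After rescaling these changes were −0.08 and −0.01.

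Fewer genes passed in the fits that took the 7SL share into account. Among samples with a share under 25%, which left all 5 saline and 2 HDM samples, 4 of 10 genes passed: Mmp12, Mmp14, Mmp19 and Timp1. Both of these HDM samples were from females, so the 7SL share, sex and the number of samples changed together and cannot be told apart here. The log2 fold changes of the other 3 there were 0.83 for Mmp2, −0.49 for Mmp8 and −0.62 for Timp3. With the share as a covariate 4 passed as well, and Mmp8, Mmp19 and Timp3 did not. No saline sample had a share over 25%, so no value could be had there.

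**Figure D2:**
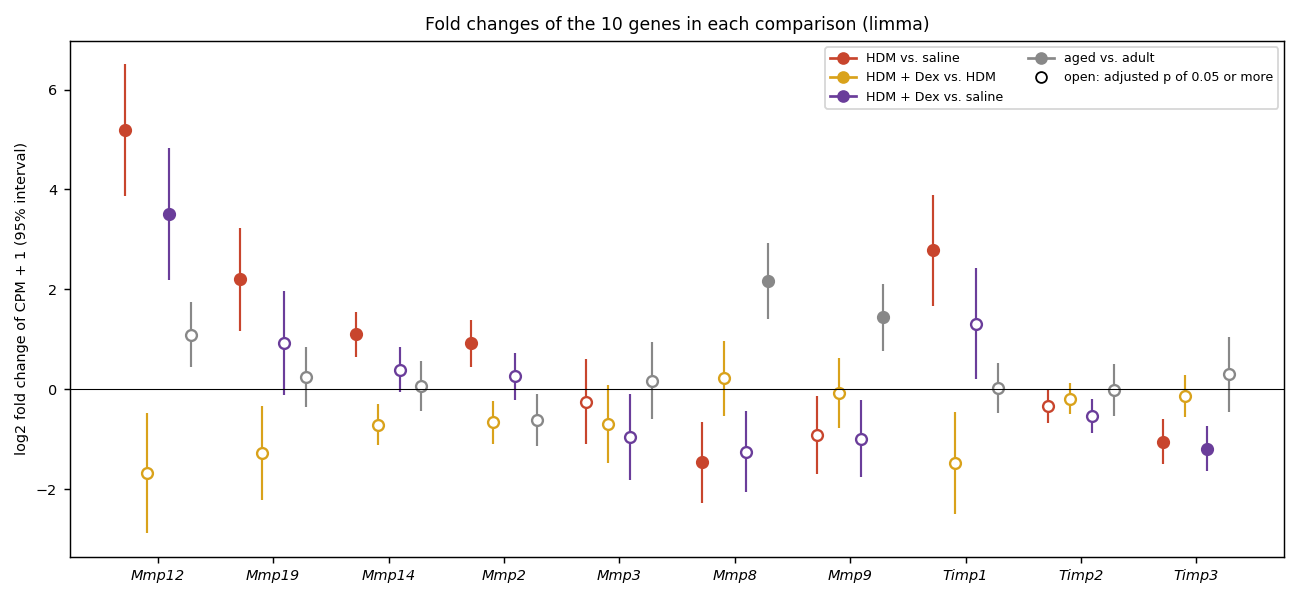
Log2 fold change of CPM + 1 for the 10 genes in the 4 comparisons, with 95% intervals, and filled points where the adjusted p in limma was under 0.05. For HDM vs. saline 7 points are filled, for HDM + Dex vs. saline and aged vs. adult 2 each, and for HDM + Dex vs. HDM none.

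The Dex-treated group addressed whether a steroid reduced the HDM changes. None of the 10 genes passed the test for HDM + Dex vs. HDM in limma (0 of 10, beside 0.964% of all genes and 0.214% lower), and no gene lacked overlap between the groups (0.225% of all genes did). Of the 10 fold changes 9 were negative, of which that of Mmp9 changed sign under some alternatives. At an unadjusted p under 0.05 the count was 5 of 10, namely Mmp12, Mmp14, Mmp19, Mmp2 and Timp1, and 2389 of all 17744 genes. These 5 were the genes that HDM had raised, and both comparisons use the same HDM samples.

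In HDM + Dex lungs Mmp12 ran from 13.2 over a median of 75.6 to 192 CPM. All 7 values lay below the 4 highest HDM samples, and the groups overlapped through the 3 lower HDM samples. The 4 highest, replicates 1, 3, 4 and 5, were from males with a 7SL share over 25%. Of the 3 lower ones, replicates 6 and 7 were from females with a share under 25%. Over 25% the Mmp12 medians were 403 CPM in 5 HDM and 94.7 CPM in 4 HDM + Dex samples. Under 25% they were 61.3 CPM in 2 HDM and 24.8 CPM in 3 HDM + Dex samples. Sex and 7SL share went together in the HDM group and cannot be told apart there. The means were 282 ± 234 CPM in HDM and 77.0 ± 60.8 CPM in HDM + Dex (SD, n = 7 each). The log2 fold change was −1.68 (95% interval −2.89 to −0.47, adjusted p = 0.171).

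Timp1 ran from 1.18 over a median of 3.65 to 16.2 CPM with Dex. It overlapped the HDM group, whose replicate 2 was at 1.21 CPM. The log2 fold change was −1.47 (95% interval −2.49 to −0.46, adjusted p = 0.150).

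Mmp19 ran from 15.2 over a median of 25.6 to 90.7 CPM with Dex, and 1 sample, replicate 6, stood far above the other 6. Its log2 fold change was −1.28 (95% interval −2.22 to −0.34, adjusted p = 0.182). Mmp14 ran from 33.4 over 45.6 to 71.3 CPM, for a log2 fold change of −0.71 (95% interval −1.12 to −0.30, adjusted p = 0.0846). Mmp2 ran from 24.0 over 45.2 to 74.1 CPM, for a log2 fold change of −0.66 (95% interval −1.09 to −0.23, adjusted p = 0.122).

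The library of HDM replicate 2 decided several of these calls. It had the lowest Timp1, Mmp19 and Mmp14 of the 7 HDM samples. Without it 3 of the 10 genes passed, Mmp14 (log2 fold change −0.88, adjusted p = 0.0123), Mmp19 (−1.63, adjusted p = 0.0320) and Timp1 (−1.93, adjusted p = 0.0142), and 544 of all genes passed in place of 171. Mmp14 also passed after rescaling (adjusted p = 0.0434), with sex as a covariate (0.0360), with the 7SL share as a covariate (0.0455) and without HDM + Dex replicate 6 (0.0321). Timp1 also passed among samples with a 7SL share under 25% (−2.85, adjusted p = 0.0240), which left 2 HDM and 3 HDM + Dex samples.

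For the other 5 genes the difference was small beside its interval or uncertain. Mmp3 changed by −0.71 on the log2 scale (95% interval −1.49 to 0.07), Timp2 by −0.19 (−0.50 to 0.11), Timp3 by −0.14 (−0.56 to 0.28), Mmp9 by −0.08 (−0.78 to 0.63) and Mmp8 by 0.21 (−0.53 to 0.96). Glucocorticoid target genes, such as Fkbp5 and Tsc22d3, gave no call either: 0 of 8 passed for HDM + Dex vs. HDM, beside 0.964% of all genes, with −0.17 for Fkbp5 and −0.23 for Tsc22d3.

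Compared with saline, 2 of 10 genes (20.0%) passed in HDM + Dex lungs, beside 1.89% of all genes, 0.445% higher and 1.44% lower. Mmp12 was higher, by 3.51 on the log2 scale (SE 0.64, adjusted p = 0.00903), and its mean was 16.8-fold that of saline. Timp3 was lower, by −1.19 (SE 0.22, adjusted p = 0.0105), at a lowest of 253, a median of 369 and a highest of 508 CPM. Neither gene overlapped the saline group, as was the case for 2.40% of all genes. The other fold changes against saline were 1.31 for Timp1, 0.92 for Mmp19, 0.39 for Mmp14, 0.26 for Mmp2, −0.53 for Timp2, −0.96 for Mmp3, −0.99 for Mmp9 and −1.25 for Mmp8, at adjusted p from 0.0890 to 0.496. Timp2 passed without HDM + Dex replicate 7 (−0.62, adjusted p = 0.0311). With the 7SL share as a covariate neither Mmp12 (2.31, adjusted p = 0.138) nor Timp3 (−0.73, adjusted p = 0.0965) passed, and neither did among samples under 25% (2.58, adjusted p = 0.0544, and −0.86, adjusted p = 0.280).

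Age without HDM went with higher neutrophil proteinases. Mmp8 and Mmp9 were higher in naïve aged than in naïve adult lungs (2 of 10, 20.0%, beside 0.659% of 17743 genes tested and 0.597% in the higher direction), and the other 8 genes did not pass. Mmp8 was at 0.404, 1.24, 1.78, 4.43 and 2.37 CPM in adults, below every aged sample, and its log2 fold change was 2.16 (SE 0.36, adjusted p = 0.00646). Of all genes, 2.91% were higher without overlap. Mmp9 was at 2.99, 6.67, 4.71, 7.08 and 3.23 CPM in adults, where 2 samples reached above the lowest aged one, and its log2 fold change was 1.44 (SE 0.31, adjusted p = 0.0444). The call for Mmp9 held in 5 of 19 alternatives and that for Mmp8 in 17 of 19. Mmp9 was no longer called when naïve adult replicate 1, 2, 3 or 5 or saline replicate 1, 2 or 4 was left out, at adjusted p from 0.0686 to 0.116. After median-of-ratios rescaling Mmp9 was not called either, and of the 10 genes 1 was higher, Mmp8, and 1 lower, Mmp2.

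Some neutrophil markers were higher with age as well. Of 7 tested, 4 were higher in aged lungs, beside 0.597% of all genes, S100a8 by 2.19, Retnlg by 2.09, S100a9 by 2.06 and Cxcr2 by 1.74, and the summed medians were 83.4 CPM in adult and 226 CPM in aged lungs. The other 3 did not pass. Csf3r was at a log2 fold change of 1.502 (adjusted p = 0.137) and Ngp at 0.48 (adjusted p = 0.556), and Ltf went the other way at −0.77 (adjusted p = 0.512), with means of 36.4 CPM in adult and 24.9 CPM in aged lungs. The part of neutrophil genes in the Mmp8 and Mmp9 result was not tested. All 5 adult mice were female and 3 of 5 aged mice male, and with sex as a covariate the log2 fold changes were 2.12 for Mmp8 (adjusted p = 0.0585) and 1.39 for Mmp9 (adjusted p = 0.215).

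Mmp12 was at 0.323, 2.03, 2.73, 1.35 and 1.24 CPM in adult lungs, and its log2 fold change with age was 1.09 (95% interval 0.44 to 1.75, adjusted p = 0.148). The highest adult value lay above the lowest aged value. Mmp2 was lower with age by −0.62 (adjusted p = 0.345). Naïve adult replicate 1, with a 7SL share of 41.98%, had the lowest Mmp2 and Mmp14 of its group, and without it the change of Mmp2 was −0.83 (adjusted p = 0.0300). Mmp2 was also called lower after rescaling. Mmp3, Mmp14, Mmp19, Timp1, Timp2 and Timp3 changed by between −0.02 and 0.30, and each of these 6 changed sign under at least 1 alternative.

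**Figure D3:**
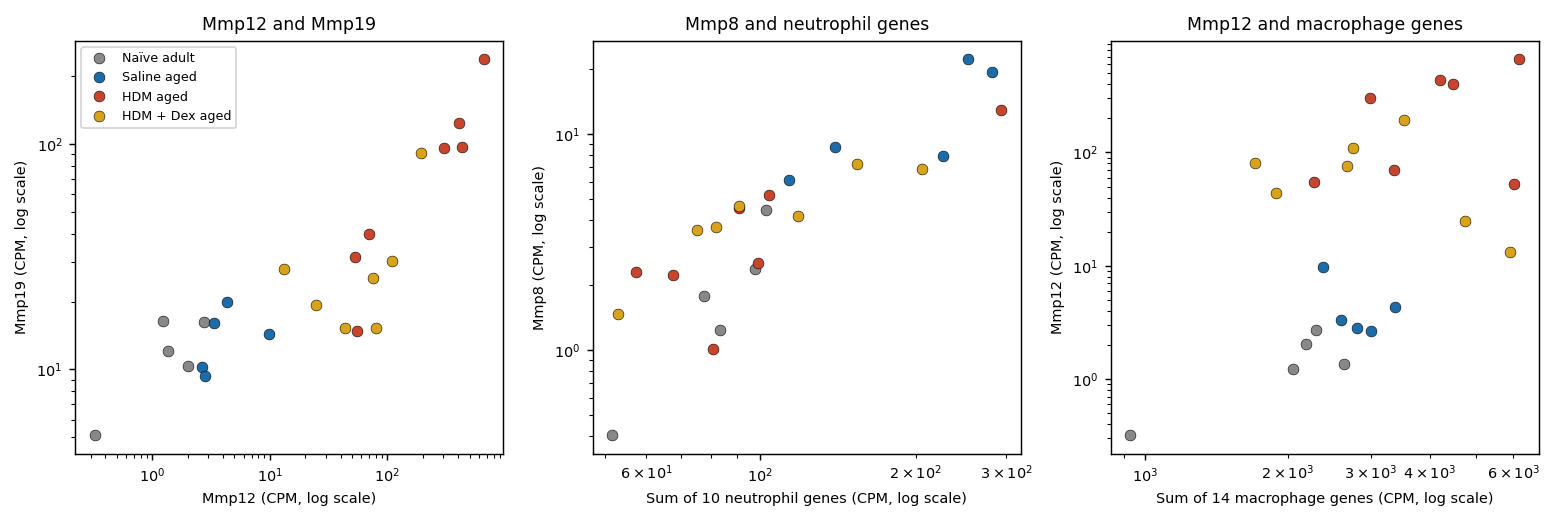
Each point is a mouse, colored by group, on log axes of CPM, with Mmp19 against Mmp12 (left), Mmp8 against the sum of 10 neutrophil genes (middle) and Mmp12 against the sum of 14 macrophage genes (right). HDM replicate 7 has the highest neutrophil sum at 294 CPM, and the HDM samples with the highest Mmp12 also have the highest Mmp19.

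Between mice of a group, Mmp12 and Mmp19 varied together. After group means were removed, log2(CPM + 1) in the 19 aged mice gave a Pearson r of 0.774 (permutation p = 0.00124, adjusted over 45 pairs of members 0.0279) and a Spearman rho of 0.777 (permutation p = 0.00196, adjusted 0.0441). Without the 2 samples farthest from the median of Mmp12, r was 0.849. It was 0.555 in the 10 samples with a 7SL share under 25% and 0.950 in the 9 samples over it. Timp2 and Timp3 had an r of 0.742 (permutation p = 0.00052, adjusted 0.0234) and a rho of 0.779 (adjusted 0.0225), and r was 0.676 without the 2 farthest samples. For Timp2 and Timp3 r was 0.719 in the 10 samples with a 7SL share under 25% and 0.589 in the 9 samples over it. After rescaling, r was 0.823 for Mmp12 and Mmp19 (permutation, adjusted p = 0.0166) and 0.417 for Timp2 and Timp3 (permutation, adjusted p = 0.407). The pair of Timp2 and Timp3 thus passed only before rescaling. The other 43 pairs did not pass.

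Among all 17743 genes that could be ranked, those whose level between mice was most like that of Mmp12 over the 19 aged mice were Col24a1 (r = 0.912), 4930512J16Rik (0.892), Ighe (0.846), Mmp13 (0.834) and Arg1 (0.830). Mmp19 ranked 27 and Timp1 645 in this order. Ighe encodes the constant region of IgE, and Arg1 encodes arginase 1, an enzyme of alternatively activated macrophages. These correlations are given as a description. Each mouse is 1 library, and the libraries differ in depth and 7SL share, which act on every gene of a library at once.

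Some macrophage genes rose with HDM too. Of 14 tested, 8 were higher, beside 4.04% of all genes, and 12 were higher after rescaling. The largest rises were Chil3 by 3.02, Itgax by 1.88 and C1qb by 1.82 on the log2 scale, and none was called lower. The other 6 did not pass, at 0.87 for Mrc1, 0.73 for Adgre1, 0.68 for Ccr2, 0.61 for Cx3cr1, −0.39 for Lyz2 and −1.03 for Marco (adjusted p from 0.0554 to 0.436). The summed medians of all 14 were 2806 CPM in saline (range 2373 to 3377), 4208 CPM in HDM (2274 to 6176) and 2751 CPM in HDM + Dex (1708 to 5901). Lyz2 alone had medians of 2348 CPM in saline and 1629 CPM in HDM. The sum thus overlapped between saline and HDM, while Mmp12 did not. In HDM replicate 7 the sum was 6029 CPM and Mmp12 53.1 CPM, and in replicate 5 they were 6176 and 660 CPM. The part of macrophage genes in the Mmp12 result was not tested.

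In HDM lungs the summed inhibitors stood closer to the summed proteinases than in saline lungs. Summed per kb of exon, the 7 proteinases had a median of 41.4 CPM per kb in saline (33.1 to 46.7), 111.9 in HDM (43.5 to 201.1) and 48.4 in HDM + Dex (31.8 to 92.9). The 3 inhibitors had medians of 170.7, 116.8 and 101.6 CPM per kb. The sum of inhibitors over that of proteinases was 4.12 in saline (3.20 to 6.18), 1.05 in HDM (0.581 to 2.45) and 2.18 in HDM + Dex (1.09 to 2.76), and naïve adults had 4.41 (3.00 to 5.06). All 7 HDM and all 7 HDM + Dex ratios were below all 5 saline ratios. The HDM and HDM + Dex ratios overlapped. No test is given for a sum over chosen genes.

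Composition changed within both sums. Mmp12 made up a median of 1.11% of the proteinase sum in saline, 37.4% in HDM and 19.1% in HDM + Dex. Timp1 made up 0.625%, 14.4% and 3.57% of the inhibitor sum. With HDM the order by median became Timp2, Timp3, Mmp12, Mmp19, Timp1, Mmp2, Mmp14, Mmp3, Mmp9 and Mmp8, and every neighbor in that order overlapped the next.

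**Figure D4:**
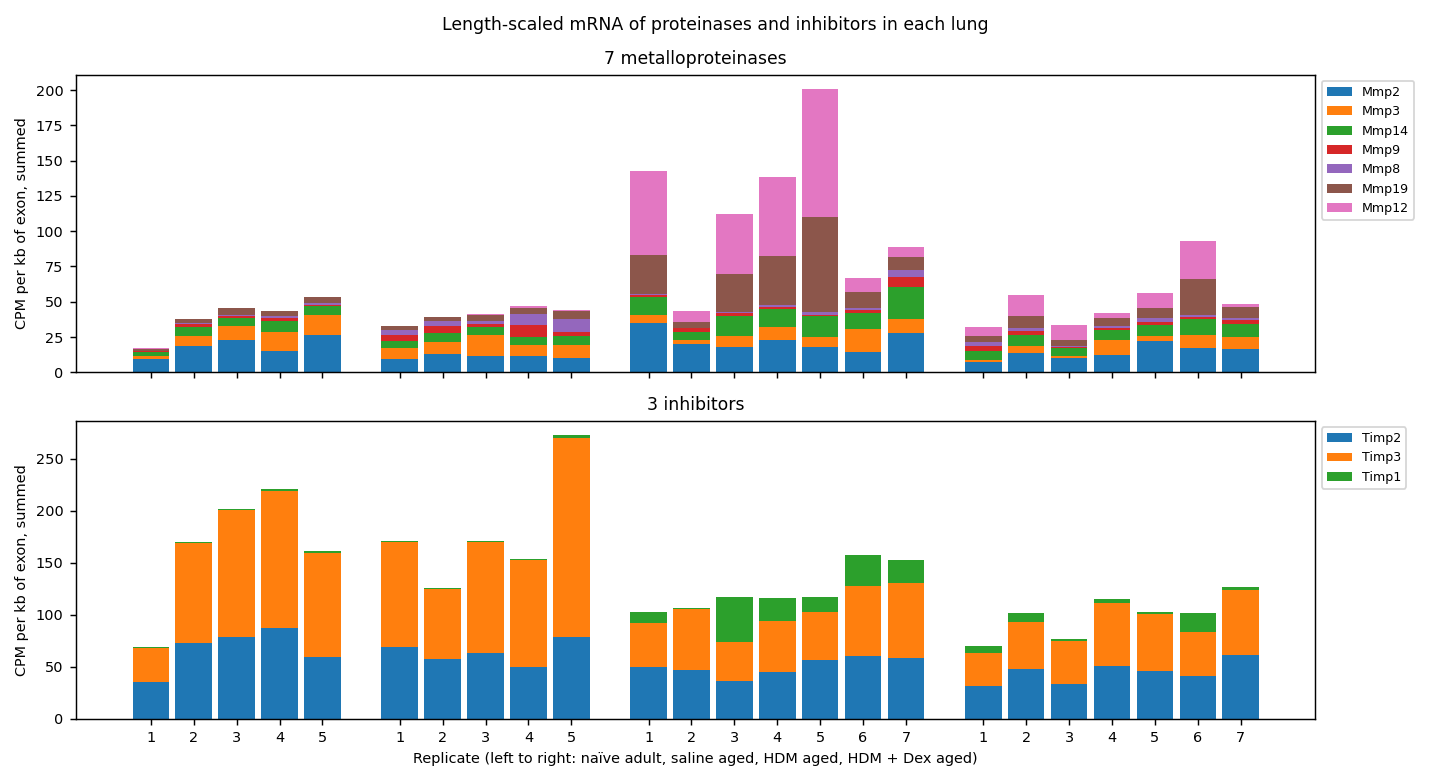
Stacked bars of CPM per kb of exon for the 7 proteinases (top) and the 3 inhibitors (bottom) in each mouse, by group and replicate. Proteinase sums reach 201.1 in HDM samples and at most 46.7 in saline samples, and Timp2 and Timp3 make up most of the inhibitor sum.

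Other genes of the family were counted as well. Of 16 other Mmp genes listed, 10 were in the table and 7 were tested. With HDM 2 of the 7 were higher and 1 lower, beside 4.04% and 21.2% of all genes. Mmp13 was at 0.247, 0.420, 0.242, 0.302 and 0.149 CPM in saline, about 3 to 7 estimated reads. It ran from 0.906 over 7.85 to 39.4 CPM in HDM without overlap, and 1.03% of all genes were higher without overlap. With Dex Mmp13 ran from 0.525 to 3.23 CPM, at a log2 fold change of −1.68 (adjusted p = 0.119). Mmp25, a membrane-anchored proteinase of leukocytes, rose by 1.24 (adjusted p = 0.00252), and Mmp28, epilysin, fell by 0.78 on the log2 scale (adjusted p = 0.0169) but was not called after rescaling. Mmp15, a membrane-type proteinase, was at 101 ± 18.8 CPM in saline and 79.9 ± 17.2 CPM in HDM and was not called.

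Of 5 other inhibitors, 3 were tested, and with HDM 1 was higher and 1 lower, beside 4.04% and 21.2% of all genes. Reck, a membrane-anchored inhibitor of MMPs, fell by 1.22 on the log2 scale (adjusted p = 0.00184). All 7 HDM samples lay below all 5 saline samples, and 8.71% of all genes had no overlap in either direction. Tfpi2, a serine proteinase inhibitor that protects matrix, rose by 1.21 (adjusted p = 0.000995). Its level was low, at 0.140 to 0.636 CPM in saline, where 3 reads came to 0.106 to 0.210 CPM, and at 0.736 to 3.72 CPM in HDM. Timp4 was at 3.82 ± 1.17 CPM in saline and 4.17 ± 1.08 CPM in HDM. None of the 7 Mmp genes and 3 inhibitors was called for HDM + Dex vs. HDM or for aged vs. adult, beside 0.964% and 0.659% of all genes.

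The wider set of matrix-degrading genes was counted by list for HDM vs. saline, where 4.04% of all genes were higher and 21.2% lower. Of 7 cysteine cathepsins and cystatins tested, 4 were higher and none lower, with Ctsk, the collagen-degrading cathepsin, up by 2.33, Ctss by 1.96 and Ctsl by 1.18. The median of that list was 1.12, beside −0.23 for all genes. Of 9 genes that activate or bind pro-MMPs, 2 were higher, Lcn2, which binds Mmp9, by 2.51 and Plau, urokinase, by 1.36. Of 19 ADAM and ADAMTS metalloproteinases, 2 were higher (Adam8 by 1.47 and Adamts4 by 0.84) and 6 lower (Adam28 by −1.45, Adamts1 by −0.92 and Adamts8 by −0.84 among them), and after rescaling 7 were higher and 4 lower.

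Substrates rose in part. Of 10 matrix genes, 5 were higher, beside 4.04% of all genes, among them Col3a1 by 1.80, Col1a1 by 1.58 and fibronectin Fn1 by 1.17. Decorin Dcn was lower by −1.38, where 21.2% of all genes were lower. Col1a1 and Col3a1 were also lower in HDM + Dex than in HDM lungs, by −0.85 and −0.90, beside 0.214% of all genes. Of 9 fibroblast markers tested, 1 was higher with HDM (Col1a2) and 4 were lower, beside 4.04% and 21.2% of all genes. The 4 included Pi16 by −1.34, Tcf21 by −0.97 and Dcn. With age, Col1a1 and Col3a1 were lower, by −1.42 and −1.28, where 11 of 17743 genes were lower.

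Of 6 cytokines known to induce MMPs or TIMPs that were tested, 2 were higher with HDM, beside 4.04% of all genes, Csf2 by 1.14 and Tgfb1 by 0.65. None was called for HDM + Dex vs. HDM, beside 0.964% of all genes. Of 8 glucocorticoid targets, 6 were lower in HDM and 5 in HDM + Dex than in saline lungs, beside 21.2% and 1.44% of all genes. After rescaling 2 were lower in each.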

How the data were processed

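Libraries were stranded mRNA libraries read as 50 bp pairs, per the paper's methods, which name the Picard-STAR-limma pipeline. The submitters' processing notes name FastQC, STAR, DESeq2 and mm9, with no versions, whereas of 23276 gene symbols found in GENCODE M21 (GRCm38), 23142 had the same start, so coordinates are given as GRCm38. The counter and the handling of strand are not given in the sources used here. The authors deposited one table of CPM, with 0.0001 added to every value. Its low values were whole multiples of the estimated 1-read step for 80.3% to 85.0% (within 0.05), so counts were not recovered and count tests were not run. Estimated depths cover counting error only.

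Groups were compared by limma (version 3.58.1, R 4.3.3) on log2(CPM + 1), a scale that understates the changes of low genes. Genes averaging 1 CPM or more across all 24 samples were kept, with eBayes (trend) and Benjamini-Hochberg adjustment over all genes at 0.05. One model held the 19 aged samples and another the 10 naïve samples, where 1 gene without variation dropped out. Genes named besides the 10 came from fixed lists, by up to 3 called genes with the largest change in each direction, other Mmp genes and inhibitors averaging 1 CPM in some group, and the 5 genes most like Mmp12. The 10 genes and the lists were chosen with earlier results of these data known. Correlations used 100000 permutations within groups, two-sided. On simulated data with 4-fold changes, 195 of 195 changed genes were recovered for HDM vs. saline (7 others called), 198 of 198 for HDM + Dex vs. HDM (10 others) and 195 of 197 for aged vs. adult (18 others). The simulation gave every gene the same modest spread between mice and every group the same 7SL share. Mmp12 and Timp1 varied far more between HDM mice, so these counts do not measure the power for such genes. Alternatives were 2 other pseudocounts, 2 other filters, median-of-ratios rescaling, the replicate number as a block, sex, the 7SL share, the 2 groups alone and leaving out each sample. The splits by 7SL share and the sex covariate for aged vs. adult were added after the data were seen. Samples of a group correlated at 0.958 to 0.991 (log2 CPM + 1), and none were identical. The labels number the samples within a group. Each was taken as a separate mouse, and p-values measure only the spread between these samples. Promoter sequences are from RefSeq (GRCm38.p6). Figures were drawn with matplotlib 3.10.9, and other steps used pandas 2.3.3, numpy 2.4.6 and scipy 1.17.1 in Python 3.11.15.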

Additional observations from a re-analysis of the deposited data

Results flagged for a closer look

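In 7 of 40 groups of values of the 10 genes, 1 sample stood far from the others of its group by the gap to its nearest neighbor. The rule would flag about 2.0 of 40 if values were independent and normally distributed. The values were untransformed CPM and genes shared libraries, so the 2 counts do not measure an excess. Mmp12 was at 9.803 CPM in saline replicate 4, against 2.65 to 4.30 in the other 4. Mmp3 was at 25.87 CPM in saline replicate 3, against 13.0 to 16.2 in the others. Timp1 was at 2.721 CPM in saline replicate 5, against 0.725 to 1.05 in the others. Mmp14 was at 16.79 CPM in naïve adult replicate 1, against 35.9 to 43.6 in the others, and that sample had a 7SL share of 41.98%. Mmp8 was at 12.93 CPM and Mmp9 at 23.35 CPM in HDM replicate 7, against 1.00 to 5.24 and 4.05 to 8.77 CPM in the other 6, and the sum of 10 neutrophil markers was 294 CPM in that sample, against 57.4 to 104 in the others. Mmp19 was at 90.70 CPM in HDM + Dex replicate 6, against 15.2 to 30.3 in the others. The cause of these values was not tested.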

How the results depend on the processing

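The 10 genes had 7 calls for HDM vs. saline, 0 for HDM + Dex vs. HDM, 2 for HDM + Dex vs. saline and 2 for aged vs. adult, the order used below. Of their alternative values, 800 kept direction and call, 26 lost the call, 22 gained it and 32 changed sign. The cause was not tested. With the 7SL share as a covariate, calls were 4, 1, 0 and 0, and calls over all genes were 1571, 563 and 34 in the 3 comparisons of aged mice. Among samples under 25% they were 4, 1 and 0, with 1072, 11 and 28 over all genes, and over 25% 1 gene was called for HDM + Dex vs. HDM. Rescaling gave 1 of 10 for HDM + Dex vs. HDM and 505, 167 and 183 genes for HDM + Dex vs. HDM, HDM + Dex vs. saline and aged vs. adult, and left 1 of 2 correlations. The sex covariate gave 1 of 10 and 293 genes for HDM + Dex vs. HDM, 5 of 10 and 1929 genes for HDM + Dex vs. saline, and 0 of 10 for aged vs. adult. A fit of the 2 groups alone gave 1 gene for HDM + Dex vs. HDM and 519 for HDM + Dex vs. saline. For aged vs. adult, a mean of at least 5 CPM left 69 genes, and 1 of 10 was called at that filter, with no filter and at a pseudocount of 5.

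Leaving out 1 sample gave 2954 to 5338, 2 to 544, 66 to 772 and 74 to 159 genes, and 7 to 8, 0 to 3, 2 to 3 and 1 to 2 of the 10 in the 4 comparisons. The lowest were without saline replicate 3, HDM replicate 5, saline replicate 3 and naïve adult replicate 2. The count of genes moved by over 1.5 times without any 1 sample other than HDM + Dex replicate 2 for HDM + Dex vs. HDM, and without any other than saline replicate 2 or HDM + Dex replicate 5 for HDM + Dex vs. saline.

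Replicate numbers were taken to name separate mice. As a replicate block they gave 8 genes for HDM + Dex vs. HDM, 898 genes and 4 of 10 for HDM + Dex vs. saline, 176 genes for aged vs. adult and 5644 genes and 9 of 10 for HDM vs. saline. Same-numbered samples deviated together at correlations of −0.24 to 0.41, over 0.1 in 1 of 5, 2 of 7, 0 of 5 and 0 of 5 pairs.

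Signs changed among uncalled values. For HDM vs. saline, Mmp3 was 0.62 with the 7SL covariate and 0.46 under 25%, and Timp2 was 0.068 with the covariate. For HDM + Dex vs. HDM, Mmp8 was −0.54 under 25%, and Mmp9 was 0.23 over 25% and −0.21 to 0.19 with 1 sample left out. For aged vs. adult with the 7SL covariate, Mmp3 was −0.46, Mmp14 −0.27, Mmp19 −0.17, Timp1 −0.0072 and Timp3 −0.29. Under 25%, which leaves out naïve adult replicate 1, they were −0.23 for Mmp3, −0.18 for Mmp14, −0.0058 for Mmp19 and −0.0536 for Timp3. After rescaling Mmp3 was −0.0146, Mmp14 −0.14 and Timp1 −0.10. Timp1 was −0.24 with the sex covariate. With 1 sample left out, Mmp3 ran from −0.23 to 0.37, Mmp14 from −0.18 to 0.16, Mmp19 from −0.0058 to 0.37, Timp1 from −0.18 to 0.11, Timp2 from −0.23 to 0.098 and Timp3 from −0.0536 to 0.47.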
